A study of Mus musculus with 6 samples.

Results

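A set of 10 genes of the urothelium, the lining of the urinary tract, were followed in mouse kidney and ureter: the uroplakins Upk1a, Upk1b, Upk2, Upk3a and Upk3b, and the regulators Trp63, Shh, Grhl3, Pparg and Foxa1. They were chosen by gene symbol, and 10 of the 24532 genes in the deposited table carried these symbols. RNA from Ahnak KO mice, in which exon 5 of Ahnak was disrupted, and from WT mice was sequenced at postnatal day 1, an age that the methods give and the labels do not. Kidney gave 4 libraries, 2 for each genotype, and ureter gave 2, 1 for each genotype, all from whole tissue, and tissue of several organs may have been joined in a library. The study asked what loss of Ahnak changes in the developing urinary tract.

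Uroplakins are membrane proteins that assemble into plaques on the apical face of umbrella cells, the superficial cells of the urothelium, and make it a tight barrier to urine. Upk1a and Upk1b are tetraspanins, which pair with the single-pass proteins Upk2 and Upk3a or Upk3b before they leave the endoplasmic reticulum. Trp63 is the transcription factor of basal and intermediate cells, Grhl3, Pparg and Foxa1 are transcription factors of urothelial differentiation, and Shh is the ligand that the ureteric epithelium sends to the mesenchyme around it, which becomes smooth muscle.

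The estimated counts summed to between 55744703 and 66095616 in the kidney libraries, to 36410246 in the Ahnak KO ureter and to 54985927 in the WT ureter. Ahnak itself had 20.6 and 22.1 TPM (a level scaled for transcript length and library size) in Ahnak KO kidneys, 27.7 and 24.7 TPM in WT kidneys, 88.0 TPM in the Ahnak KO ureter and 77.5 TPM in the WT ureter. Both KO kidneys were thus below both WT kidneys. In ureter the order depended on the unit, since TMM-scaled CPM was 635 in KO and 727 in WT. Ahnak RNA was present in each library, and the table, which gives 1 value per gene, does not show whether exon 5 was read. A pair of libraries stood apart from the rest. Ahnak KO kidney replicate 1 had 363 TPM of Xist, the X inactivation transcript, against at most 0.0673 TPM in the other libraries. It also had 0 counts of the Y chromosome genes Ddx3y, Eif2s3y, Kdm5d and Uty, which every other library held. By these genes that library was female and the others male, so that sex differed within the Ahnak KO kidney pair. In the Ahnak KO ureter the ribosomal transcript Rn45s took 8.06% of the counts against 0.496% to 0.632% elsewhere. The labels call the ureter libraries ureter in the tissue fields although their titles say kidney. Markers of kidney cells were absent from both: Aqp2, the water channel of the collecting duct, Slc34a1 of the proximal tubule, Umod of the thick ascending limb and Nphs1 of the podocyte had 0 counts there, where 3 counts would be 0.0546 to 0.0824 CPM, a count scaled by library size.

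The 10 genes lie on 8 chromosomes of GRCm38.p6 in the RefSeq annotation. The promoters of 3 uroplakins, shown because these genes were all far higher in ureter than in kidney, are the 250 bases before the annotated start, written 5′ to 3′ on the strand of the gene from RefSeq. Capitals mark matches on either strand to AGGTCA (bound by nuclear receptors such as Pparg), TGTTTAC (forkhead factors such as Foxa1), AACCGG (grainyhead factors such as Grhl3), AGATAA (zinc finger factors such as Gata3) or TATAAA (the core promoter element), none of which holds another. Upk1a lies on chromosome 7, Upk3a on chromosome 15 and Upk3b on chromosome 5.
Upk1a, minus strand, chr7:30612735-30612984: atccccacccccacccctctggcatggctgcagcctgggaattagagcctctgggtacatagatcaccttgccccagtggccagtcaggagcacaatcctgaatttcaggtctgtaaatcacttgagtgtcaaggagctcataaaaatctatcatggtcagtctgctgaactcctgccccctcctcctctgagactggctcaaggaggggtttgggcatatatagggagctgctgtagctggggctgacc
Upk3a, plus strand, chr15:85016891-85017140: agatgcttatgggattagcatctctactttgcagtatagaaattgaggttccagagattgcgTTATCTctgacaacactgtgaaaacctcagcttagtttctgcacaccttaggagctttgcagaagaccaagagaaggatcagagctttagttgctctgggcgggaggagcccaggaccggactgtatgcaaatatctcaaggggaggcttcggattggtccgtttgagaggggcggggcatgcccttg
Upk3b, plus strand, chr5:136038246-136038495: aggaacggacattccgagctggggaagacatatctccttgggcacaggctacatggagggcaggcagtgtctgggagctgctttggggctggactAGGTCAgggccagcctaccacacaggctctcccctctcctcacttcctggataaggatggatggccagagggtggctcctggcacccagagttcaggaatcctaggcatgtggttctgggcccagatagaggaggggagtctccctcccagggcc
The Upk3b promoter held AGGTCA with its first base 155 bases before the start, and the Upk3a promoter held AGATAA on the opposite strand 188 bases before it. The Upk1a promoter held none of the 5 motifs in these exact letters. Variants of a motif, such as other forms of the TATA box, were not sought. Among 32851 promoters of the same length, AGGTCA was in 14%, TGTTTAC in 3.17%, AACCGG in 5.62%, AGATAA in 9.99% and TATAAA in 12.4%, so that such matches are common. They describe letters and not bound sites.

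Primers for qPCR of Trp63 and Upk1b, taken from the supplement of the study, are shown because they define which transcripts such an assay reads. All letters are lower case because no part is singled out.
Upk1b forward: cagcaacacaacgcgacttt
Upk1b reverse: gtcattggttgggggactgt
Trp63 forward: atgatgggcactcacatgcc
Trp63 reverse: gagcagcccaaccttgctaa
Matched to GENCODE M21 transcripts on GRCm38, the Upk1b pair lay in exons 4 and 5 of 8 exons of 1 of its 2 transcripts, gave a product of 89 bases and spanned chr16:38784248-38784904. The Trp63 pair gave a product of 164 bases, spanned chr16:25884816-25886229 and was found whole in 3 of 8 transcripts of Trp63, of which 1 more held the forward primer alone and 4 held neither. The deposited value for Trp63, by contrast, joins 8 RefSeq transcripts. In no transcript of another gene (0 found) did both primers of a pair occur. By qPCR scaled to B2m the study reported lower Trp63 and Upk1b in Ahnak KO than in WT ureters, and it reported lower Upk1b protein. By staining it also reported fewer layers of p63-positive basal cells, weak Upk1b and a thinner urothelium in Ahnak KO. The ratios of the single ureter libraries, given below, were above 0 for both genes with TMM factors. Relative to the general epithelium list, also given below, they were -0.032 for Upk1b and -0.107 for Trp63. The difference in direction between the qPCR and the TMM-scaled ratios was not tested.

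In ureter the uroplakins reached 238 to 2904 TPM, and in kidney they were present at 0.952% (Upk1b) to 1.71% (Upk3b) of that level. All 10 genes were higher in ureter than in kidney in every library, without overlap. The share of all genes whose tissues separate in this way was not counted.
Upk3a, which carries the cytoplasmic tail of its pair, had the highest TPM in both tissues, at 39.6 and 33.2 in KO and 36.8 and 42.0 in WT kidneys, against 2511 in the KO and 2904 in the WT ureter. Upk1b, its tetraspanin partner, had 18.0 and 18.1 TPM in KO and 19.8 and 17.5 TPM in WT kidneys, against 1978 TPM in the KO and 1877 TPM in the WT ureter. Upk1a had 22.4 and 17.9 TPM in KO and 21.8 and 14.5 TPM in WT kidneys, against 1639 TPM in the KO and 1946 TPM in the WT ureter. The order of the tetraspanins therefore turned between the ureter libraries, with Upk1b above Upk1a in Ahnak KO and below it in WT, and their TPM ranges overlapped in kidney. Upk2, the partner of Upk1a, had 20.3 and 13.8 TPM in KO and 17.2 and 14.4 TPM in WT kidneys, against 1250 TPM in the KO and 1412 TPM in the WT ureter. Upk3b, which can take the place of Upk3a beside Upk1b, had the lowest TPM of the uroplakins, with 3.91 and 4.29 in KO and 4.08 and 4.31 in WT kidneys, against 238 in the KO and 247 in the WT ureter. In each library Upk3b was the scarcest uroplakin and Upk3a the most abundant, while Upk1a, Upk1b and Upk2 lay between them, with overlapping TPM ranges in kidney.

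**Figure D1:**
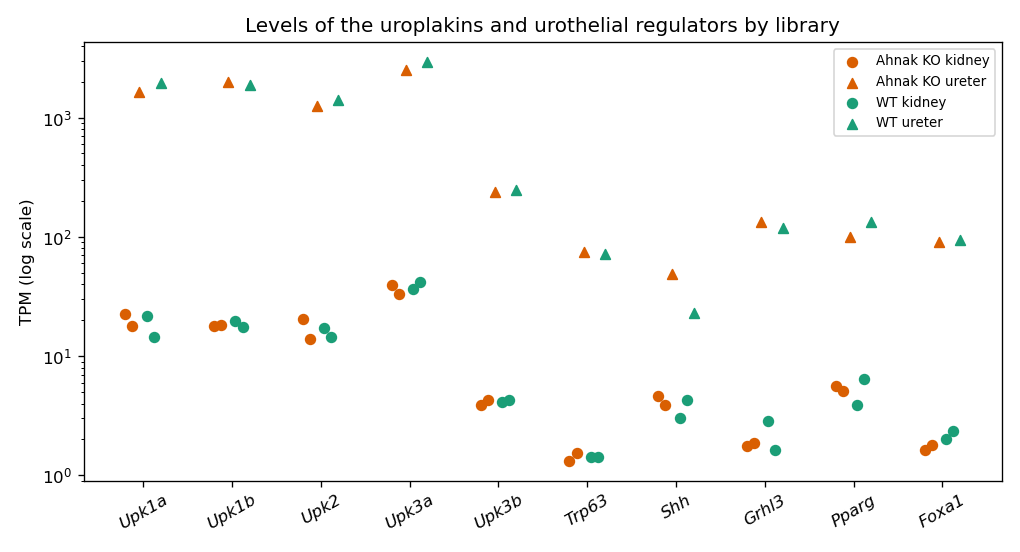
TPM (log axis) of each gene in each library, with circles for kidney, triangles for ureter, orange for Ahnak KO and green for WT. Every triangle lies above every circle of its gene, and the narrowest distance between the tissues is that of Shh.

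The regulators were less abundant. Trp63 had 1.32 and 1.54 TPM in KO and 1.43 and 1.42 TPM in WT kidneys, against 74.7 TPM in the KO and 72.4 TPM in the WT ureter. Grhl3, which drives terminal differentiation of umbrella cells, had 1.74 and 1.87 TPM in KO and 2.83 and 1.62 TPM in WT kidneys, against 133 TPM in the KO and 119 TPM in the WT ureter. Foxa1 had 1.64 and 1.81 TPM in KO and 2.0 and 2.37 TPM in WT kidneys, against 90.2 TPM in the KO and 94.9 TPM in the WT ureter. In kidney the range of Grhl3 overlapped that of Foxa1, and Trp63 lay below both. Pparg, the nuclear receptor that also drives fat cell formation, had 5.61 and 5.12 TPM in KO and 3.85 and 6.44 TPM in WT kidneys, against 100.2 TPM in the KO and 134 TPM in the WT ureter. Shh had 4.59 and 3.90 TPM in KO and 3.02 and 4.27 TPM in WT kidneys, against 48.5 TPM in the KO and 22.9 TPM in the WT ureter. Shh was the scarcest of the 10 genes in ureter but not in kidney, where its TPM range overlapped those of Upk3b and Pparg. In ureter the mean TPM fell in the order Upk3a, Upk1b, Upk1a, Upk2, Upk3b, Grhl3, Pparg, Foxa1, Trp63 and Shh, and of the neighbours in this order Upk1b and Upk1a, and Grhl3 and Pparg, changed places between the 2 libraries. The values were 2708 ± 278 TPM for Upk3a and 35.7 ± 18.1 TPM for Shh (SD over 1 Ahnak KO and 1 WT library, n = 2).

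The difference between the tissues was tested with edgeR's quasi-likelihood test on the counts, with genotype as a term, in which 16873 genes were tested. A gene was called at a Benjamini-Hochberg adjusted p under 0.05. All 10 genes were called higher in ureter and 0 lower, where 21.4% of all genes tested were called higher and 23.7% lower. The log2 fold change, ureter minus kidney, was 7.10 (standard error 0.118) for Upk1b, 6.93 (0.197) for Upk1a, 6.72 (0.175) for Upk2, 6.54 (0.113) for Upk3a and 6.25 (0.106) for Upk3b. The uroplakins thus stood between 76.1 and 137 times higher in ureter, and their adjusted p by this test was at most 6.43e-06. Among the regulators it was 6.35 (0.251) for Grhl3, 5.96 (0.121) for Trp63, 5.96 (0.151) for Foxa1, 4.80 (0.181) for Pparg and 3.50 (0.265) for Shh. Shh differed least, 11.3 times, with an adjusted p of 0.000159 by the same test, and the median of all genes tested was -0.076. Within a genotype, 1 ureter library stood against 2 kidney libraries and the spread came from the kidneys alone, so these values are given without a call. Within WT the log2 fold change ran from 2.95 (Shh) to 7.04 (Upk1a), and within Ahnak KO from 3.98 (Shh) to 7.24 (Upk1b). In whole tissue, fewer cells of a type and less RNA per cell cannot be told apart, and the p-values measure the spread between these libraries. The methods speak of biological replicates, without naming the tissue, and the labels do not say which animals a library came from.

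**Figure D2:**
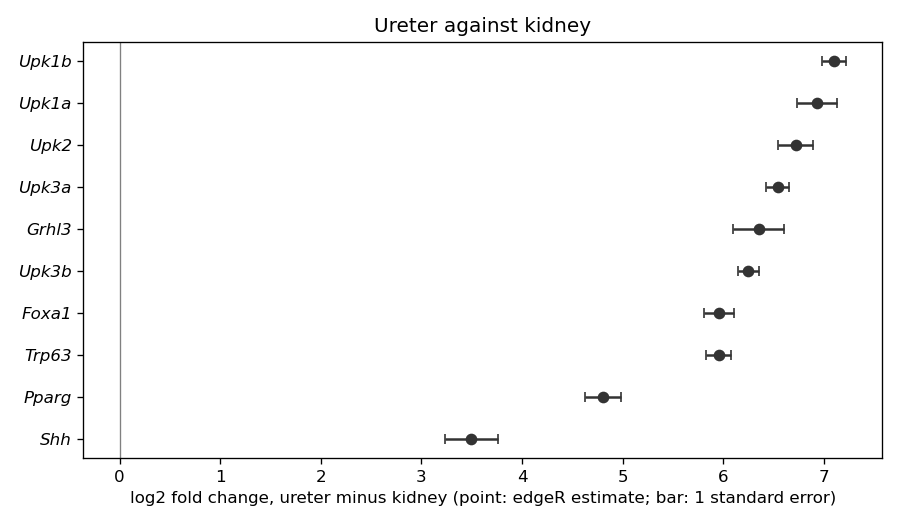
Log2 fold change, ureter minus kidney, from edgeR for each gene, with bars of 1 standard error. The 5 uroplakins lie between 6.25 and 7.10, while Pparg and Shh lie lowest at 4.80 and 3.50.

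The mixture of uroplakins was compared between the tissues as shares of their summed TPM. Upk3a made up 33.0% and 34.6% of the summed uroplakin TPM in the Ahnak KO and WT ureter and 36.9% to 45.3% in kidney, and Upk3b 3.13% and 2.94% in ureter and 3.76% to 4.91% in kidney. Upk1b took 26.0% and 22.4% in ureter and 17.3% to 20.7% in kidney. For these 3 genes the tissues did not overlap, and for Upk1a and Upk2 they did. An exact permutation test of ureter against kidney (two-sided, 15 arrangements) gave p = 0.133 for each of the 3, which is the smallest p that the design allows, 0.267 for Upk1a and 1 for Upk2. With 5 shares tested, the adjusted values were 0.222, 0.333 and 1. Relative to the summed uroplakin TPM, Shh stood at 3.02% to 4.61% in the kidney libraries, 0.637% in the Ahnak KO ureter and 0.273% in the WT ureter, so that kidney held more Shh for its uroplakins than ureter did.

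**Figure D3:**
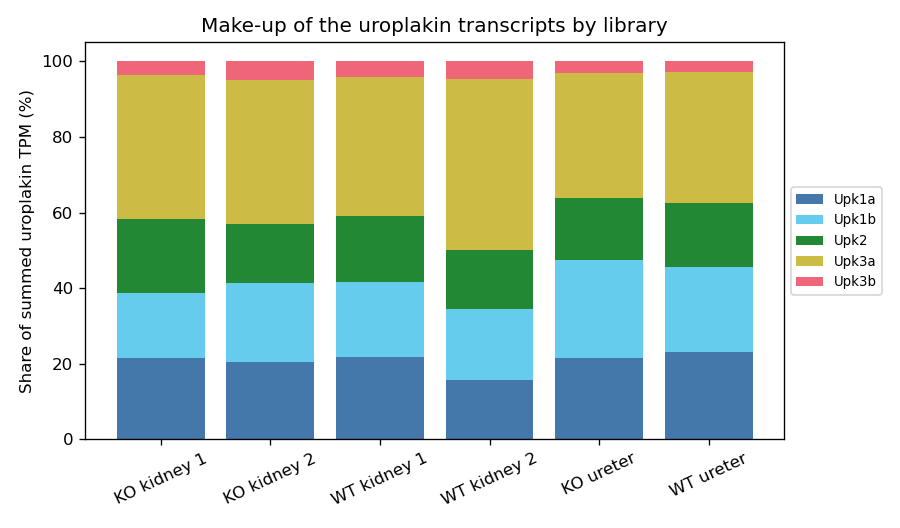
Share of the summed TPM of the 5 uroplakins (percent, bars stacked from 0) in each library. Upk3a is the largest share in each bar, and the share of Upk1b is larger in the ureter bars (22.4% and 26.0%) than in the kidney bars.

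Other genes of the urothelium, on lists chosen with earlier results known, were higher in ureter as well. Of the superficial cell list, 11 of 11 genes tested were called higher, led by Ly6d (log2 fold change 10.1), the keratin Krt20 of umbrella cells (7.39), the cornified envelope gene Sprr1a (6.75) and Psca (6.42). Of the basal and intermediate list, 11 of 14 were called higher and 0 lower, among them the basal keratin Krt5 (8.75), with 31 to 101 counts in a kidney library against 17447 and 18156 in the ureters, and the laminin chain Lamb3 (6.23). Krt6a (9.43) had 0 counts in 3 of the 4 kidney libraries and Dsc3 (5.25) in both Ahnak KO kidneys, so that their fitted values depend on the prior count. Of the general epithelium list, 13 of 15 were called higher and 0 lower, which include Krt19 (5.27), Krt18 (3.68), Krt8 (3.38) and the splicing regulator Esrp2 (2.84). The superficial and general lists share Krt8 and Krt18. The medians of the lists were 4.18, 3.76 and 2.06, below the uroplakin median of 6.72.

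Among the uroplakins' relatives and the genes that move them to the surface, 9 of 13 were called higher and 1 lower (median 0.88). Snx31, a sorting nexin found on vesicles that hold uroplakins, differed by 6.92 and Rab27b, a small GTPase of fusiform vesicles, by 5.79 on the log2 scale. Upk3bl, a uroplakin-like gene, differed by 2.85, while the tetraspanin Tspan1 was lower by this test (-4.34), with 12 and 0 counts in ureter. Rab27b had 2.46 and 2.18 TPM in KO and 2.43 and 2.04 TPM in WT kidneys, against 94.2 TPM in the KO and 101 TPM in the WT ureter, a pattern close to that of Trp63. Among 16 other transcription factors linked to urothelium, 11 were called higher and 2 lower (median 1.31), led by Tfap2c (4.63), Klf5 (3.81), the Grhl3 relative Grhl1 (3.33) and Elf3 (2.74). Foxa2, the relative of Foxa1, had 0 counts in both ureters and in both Ahnak KO kidneys and 6 and 12 counts in WT kidneys.

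The members were also compared with 14677 genes that had at least 100 counts in a library, by the root mean square distance of centred log2 profiles over the 6 libraries, which mainly reflects the tissues. Nearest to Upk2 were Upk1a (0.166), Upk3a (0.177), the serine protease Tmprss13 (0.178), Snx31 (0.203) and the smooth muscle actin Actg2 (0.249). Nearest to Trp63 were Rab27b (0.129), Ankfn1 (0.141), Foxa1 (0.143), Upk3b (0.160) and the ceramide synthase Cers3 (0.181). Actg2 is a muscle gene, and a profile over 6 libraries of 2 tissues does not separate cell types. Genes of kidney cells went the other way, with 12 of 15 collecting duct genes called lower in ureter and 2 higher, and 10 of 10 tubule and podocyte genes lower. Of 5 genes that mark sex, 0 were called between the tissues by edgeR.

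In kidney, no difference between Ahnak KO and WT was detected for the 10 genes. Of the 10, 0 were called by edgeR's quasi-likelihood test, 0 had an unadjusted p under 0.05 and 0 were called by DESeq2's Wald test. Of 16481 genes tested, 0.0121% were called and 1.38% had an unadjusted p under 0.05. The log2 fold change, Ahnak KO minus WT, ran from -0.31 (standard error 0.312) for Foxa1 to 0.25 (0.280) for Shh. For the uroplakins it was 0.18 (0.246) for Upk1a, 0.13 (0.260) for Upk2, -0.00041 (0.265) for Upk3b, -0.013 (0.166) for Upk1b and -0.083 (0.162) for Upk3a. Differences of the size of these standard errors could not be detected with 2 against 2 libraries. Foxa1 was the only 1 of the 10 whose genotypes did not overlap in TPM, with both Ahnak KO kidneys below both WT kidneys, and 26.3% of the genes tested did not overlap either way. Among the superficial list, Gsdmc alone had an unadjusted p under 0.05 (0.00968, edgeR), with 19 and 12 counts in the KO libraries and 0 in either WT library, and it was named after its values were seen. Of the 14 further lists, 0 genes were called in kidney. Without Ahnak KO replicate 1, the library with Xist, 0 of the 10 were called as well.

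In ureter there was 1 library per genotype, so that the comparison has no replicate check and no test. It is given as a log2 ratio, KO over WT, of TMM-scaled CPM to which 0.5 was added, with a 95% exact binomial (Clopper-Pearson) interval that covers counting error only. The uroplakins lay close to 0. The ratio was -0.055 (interval -0.073 to -0.038) for Upk1a, 0.27 (0.25 to 0.28) for Upk1b, 0.017 (-0.0074 to 0.042) for Upk2, -0.017 (-0.033 to -0.0020) for Upk3a and 0.14 (0.10 to 0.18) for Upk3b. The median of the 5 was 0.017, beside -0.016 over the 16117 genes compared. Trp63 had 0.19 (0.15 to 0.24), Grhl3 0.34 (0.30 to 0.39), Foxa1 0.12 (0.071 to 0.17) and Pparg -0.18 (-0.23 to -0.12). None of these 9 was past 2-fold.

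Shh was past this threshold, with 2515 counts in the Ahnak KO ureter and 1800 in the larger WT library, or 74.0 and 30.6 CPM with TMM factors, a ratio of 1.26 on the log2 scale (interval 1.19 to 1.36) or 2.40-fold. Among all genes compared, 97.4% had a lower ratio, while 4.5% were more than 2-fold higher and 5.75% more than 2-fold lower in Ahnak KO. Thus 1 of the 10 was past 2-fold higher and 0 past 2-fold lower. Its ratio exceeded the uroplakin median by 1.24 on the log2 scale, a difference that scaling a library as a whole leaves as it is.

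**Figure D4:**
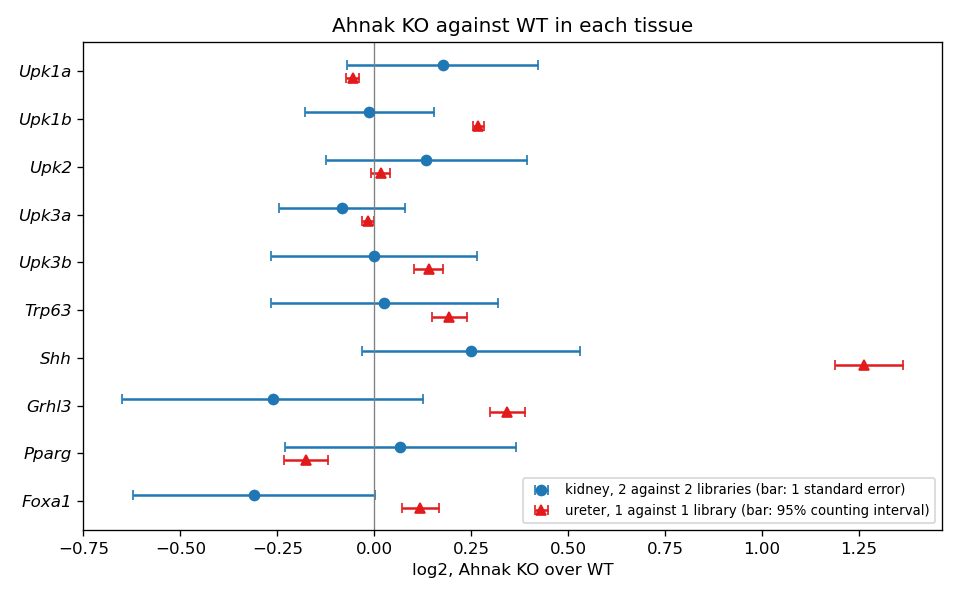
Log2 of Ahnak KO over WT for each gene, in kidney (circles, edgeR estimate with bars of 1 standard error, 2 against 2 libraries) and in ureter (triangles, 1 against 1 library, bars of the 95% counting interval). The kidney values lie between -0.31 and 0.25 and the ureter values between -0.18 and 0.34 except Shh at 1.26.

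The direction of small ratios depended on how the libraries were scaled. With TMM factors 7 of the 10 were above 0, with library size alone 3, with deposited FPKM or TPM 4, and relative to the general epithelium list 2, since these settings moved the median of all genes by -0.19 to -0.30. Relative to the median of all genes, 7 of the 10 were above it in each setting. Shh stayed above 2-fold in each except relative to the epithelium list, where it was 0.96. Rn45s moves with these values, at 8.06% of the Ahnak KO ureter, and leaving it out before scaling left the uroplakin median at 0.017 and Shh at 1.26.

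Whether the genotypes differ more in ureter than in kidney was tested as an interaction over 4 group means, in which the spread comes from the kidney pairs alone and the ureters are assumed to vary as the kidneys do. Of the 10 genes, 0 were called (edgeR, adjusted p under 0.05), 1 had an unadjusted p under 0.05, and DESeq2 called 0. Of the 16873 genes, 0.113% were called and 12.8% had an unadjusted p under 0.05, so that 1 of 10 is no more than the share of all genes. The 1 was Shh, with a difference of 1.03 on the log2 scale (standard error 0.360) and an adjusted p of 0.327 by edgeR's quasi-likelihood test (0.0313 unadjusted). The other 9 lay between -0.24 (Pparg) and 0.61 (Grhl3).

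In the Ahnak KO over WT ureter ratio, the superficial list and the basal and intermediate list had higher medians than the uroplakins. All 11 superficial genes had a ratio above 0, with a median of 0.79 and 4 past 2-fold, among them Krt20 (1.20, 14586 against 10971 counts), Ly6d (1.08) and Krt7 (1.01). The summed TPM of this list was 19239 in Ahnak KO and 12875 in WT, while that of the uroplakins was 7616 and 8385. The uroplakins thus stood at 0.396 of the superficial list in Ahnak KO and 0.651 in WT, a ratio within a library that no scaling alters, and at 0.0861 to 0.114 in kidney. Against the general epithelium list (median 0.30, 10 of 15 above 0) the uroplakins stood at 0.840 in Ahnak KO and 1.35 in WT. Of the basal and intermediate list, 12 of 15 were above 0, with a median of 0.42. Krt6a, a keratin of activated epithelium, had 369 against 100 counts (2.37) and Lamb3 a ratio of 1.0. The transcription factor Elf3 went the other way, with 3503 counts in Ahnak KO and 12809 in WT (-1.07). The median over 16 other transcription factors was -0.059 and over 13 uroplakin relatives and trafficking genes -0.016. Of these 13, 6 were above 0 and 7 below, among the latter Snx31 (-0.40, 19212 against 43979 counts) and Upk3bl (-0.40). With 1 library per genotype, the part of the mixture of cells in these values was not tested.

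**Figure D5:**
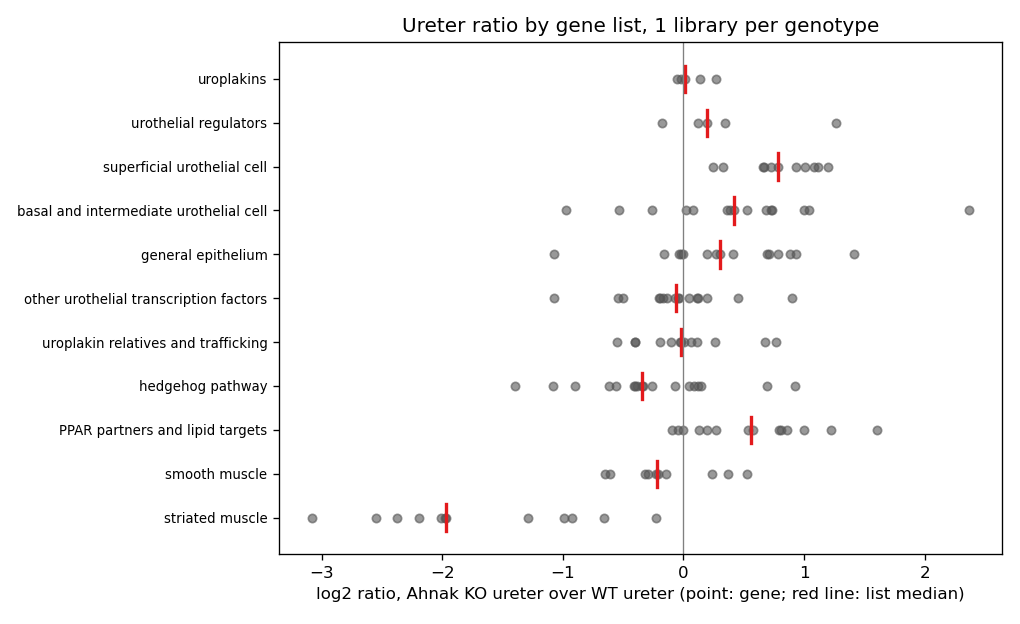
Log2 ratio, Ahnak KO ureter over WT ureter, of each gene (points) on the lists, with the list median as a red line. The uroplakins centre on 0.017, the superficial list on 0.79, the hedgehog list on -0.34 and the striated muscle list on -1.97.

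The other genes of the hedgehog pathway had ureter ratios on both sides of 0. Shh binds the receptor Ptch1, which frees Smo and turns on Gli1, and Ptch1, Gli1 and Hhip are themselves targets. Of 18 hedgehog genes other than Shh compared, 6 were above 0 and 12 below, with a median of -0.34. Ptch1 (-0.41), Gli1 (-0.39), Hhip (-0.40) and Foxf1, a mesenchymal target (-0.90), were below 0, and Disp1, which releases the ligand (0.93), and the co-receptor Gas1 (0.69) were above it. These 6 were chosen after their values were seen, and with 1 library per genotype no difference was tested. Between the tissues, 5 of 18 were called higher in ureter and 4 lower (median -0.064). Foxf1 (6.44) and Scube2, which helps release the ligand (5.71), were higher, while Ihh, a related ligand, was listed at 0 in both ureters and had 748 to 1132 counts in a kidney library. Smooth muscle genes, which mark the tissue that receives Shh, were called higher in ureter in 10 of 10 (Actg2, 7.23, and Myh11, 5.45), and in the Ahnak KO ureter 3 of 10 were above 0 (median -0.22, summed TPM 4458 against 5844). Of 12 striated muscle genes 0 were above 0 (median -1.97, summed TPM 217 against 582). The 3 smooth muscle genes above 0 were Myocd (0.53), Des (0.37) and Myh11 (0.24). The medians of both muscle lists were below 0 and the ratio of Shh above it, each from 1 library per genotype. A link between Shh and the muscle lists was not tested.

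Around Pparg, 11 of 14 partners and lipid targets had a ureter ratio above 0 (median 0.56), while Pparg itself was at -0.18. Angptl4, a lipid-responsive gene, was at 1.60 (2577 against 1450 counts), Pdk4 at 1.22 and Fabp4 at 1.0. Kidneys of the same genotype differed by more than this in Angptl4 (4.87 and 24.3 TPM in KO) and in Pdk4 (5.98 and 20.2 TPM in KO). Between the tissues 6 of the 14 were called higher in ureter and 2 lower, with Cd36 at 3.20, Fabp5 at 2.1 and Rxra, the partner of Pparg, at 1.89, and Ppargc1a at -2.29. Adipocyte markers moved too, since Adipoq had 170 counts in the Ahnak KO ureter and 18 in WT, and 6 of 8 adipocyte genes were above 0, with a summed TPM of 102 against 81.7 that is mostly Dgat2 (83.8 against 70.2 TPM). Their part in the values of Pparg and its targets was not tested. Of 7 mesothelial markers compared, 6 had a ureter ratio above 0 (median 1.04). Their summed TPM of 2326 against 1651 is mostly Krt19, which the epithelium list holds too. Msln went the other way, with 438 counts in the Ahnak KO ureter and 1166 in WT (-0.60). Lrrn4 (52 against 0 counts), Cfi (46 against 0) and Rspo1 (27 against 40) had few counts, and a difference in mesothelium was not tested.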

How the data were processed

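RNA of 4 kidney and 2 ureter libraries was sequenced by the authors on an Illumina HiSeq2500 after a stranded poly(A) library preparation. The sources differ on what followed. The methods name Cutadapt, STAR and Cufflinks with a later mouse build, whereas the submitters' processing notes name FastQC 0.11.7, Trimmomatic 0.38, HISAT2 2.1.0, StringTie 1.3.4b, edgeR and R 3.6.1 with mm10, so the counter is not settled here. The authors deposited, for each of 24532 genes, an estimated count given as a whole number, an FPKM value and a TPM value. FPKM and TPM were normalized by the authors for length and depth, and the deposited estimated counts were not.

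Counts were rounded and fitted in R 4.3.3 with the quasi-likelihood test of edgeR 4.0.16, after filterByExpr and TMM scaling, with Benjamini-Hochberg adjustment over all genes tested. Read counts had been assumed when the test was chosen. Standard errors were taken as |log2 fold change| over the root of F. The tissue fit had 3 residual degrees of freedom, the kidney and interaction fits 2. The ureter ratio used TMM factors of those 2 libraries, 0.5 CPM added and at least 10 counts in the higher library. Alternatives used DESeq2 1.42.0, limma 3.58.1 on log2(FPKM or TPM + a constant), other filters and scalings, a replicate block and leaving out each library. The fits were tested on simulated data. In these libraries 3 counts equalled 0.0454 to 0.0824 CPM, and such limits and intervals cover counting error only.

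The 10 genes and 14 further lists were chosen with earlier results of these data known. Muc16 was the listed gene that the table lacks. Named were the 10 genes, up to 4 genes of each list with the largest log2 difference among those past the test (in ureter, past 2-fold with at least 100 counts), defining markers at 0, and the 5 nearest profiles of Upk2 and Trp63. Of the genes this rule names, 2 are not reported here. Genes were placed by gene number in RefSeq, and promoters were at hand for 6 of the 10. Figures were drawn with matplotlib 3.10.9 in Python 3.11.15.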

Additional observations from a re-analysis of the deposited data

How the results depend on the processing

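All 10 genes were called higher in ureter, and 0 were called between genotypes in kidney or in the interaction, under every alternative run. Over all genes, edgeR called 2 in kidney and DESeq2 44, and 19 and 484 in the interaction. Without KO kidney 1, KO kidney 2, WT kidney 1 or WT kidney 2 the kidney count was 46, 87, 10 or 3 and the interaction count 139, 258, 4 or 5. By the study's threshold, 88 kidney genes had an unadjusted p under 0.05 with a fold over 2.

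The uroplakin median in ureter moved from 0.017 to -0.18 with library size alone, to -0.19 with FPKM, to -0.18 with TPM and to -0.28 relative to the general epithelium list, where the count past 2-fold fell from 1 to 0. The shift of all genes, given beside the ratios, is of the same size. Of 70 further ureter values 40 lay outside the counting interval, all under these 4 settings.

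No kidney value passed the test, and the sign of small ones changed. Trp63 was -0.00025 with limma on log2(TPM + 1), and with tissue as a term over all 6 libraries Upk1b was 0.080, Upk3b 0.049 and Pparg -0.021. With 1 library left out the log2 fold change ran from -0.086 to 0.50 for Upk1a, from -0.10 to 0.079 for Upk1b, from -0.13 to 0.36 for Upk2, from -0.18 to 0.013 for Upk3a, from -0.11 to 0.094 for Upk3b, from -0.13 to 0.16 for Trp63, from -0.61 to 0.19 for Grhl3 and from -0.21 to 0.41 for Pparg. The arm left with 1 library is then assumed to vary like the other.

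The replicate numbers are not known to pair the kidney libraries: deviations of same-numbered libraries correlated at -0.282. With the replicate block 0 of the 10 and 0 genes in all were called, and with the numbers crossed, an alternative added after the data were seen, 0 and 1. Depth did not limit the ureter counts (at least 1800 for each of the 10), and 128 counts was the lowest in kidney.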
